A study of Mus musculus with 6 samples.

Results

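The core circadian clock genes described here are the 10 genes Arntl, Clock, Per1, Per2, Per3, Cry1, Cry2, Nr1d1, Nr1d2 and Dbp, chosen by symbol, out of 21829 genes in the table. All 10 were found and all 10 had a mean level of 1 FPKM or more over the 6 libraries, which was the condition for testing (FPKM scales a fragment count by transcript length and library size). The tissue was epididymal fat, a white visceral depot, taken from male C57BL/6J mice that were 20 weeks old and ate a normal diet. There were 3 libraries labelled wild type (WT 1 to WT 3, littermates per the design text) and 3 labelled ZFP251 knockout (KO 1 to KO 3). The sources used here do not give the knockout allele or the time of day at which the tissue was taken. Nor do they say that every library is from its own animal, so the spread behind the p-values may be partly technical. Throughout, sets of 3 values stand in the order of replicates 1, 2 and 3 of a group.

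The circadian clock is a transcription loop that runs in nearly every cell. The proteins of Arntl (also called Bmal1) and Clock pair and bind E-box sequences, which switches on the Per and Cry genes, Nr1d1 and Nr1d2, and Dbp. The PER and CRY proteins then block the ARNTL and CLOCK pair, the REV-ERB receptors made from Nr1d1 and Nr1d2 repress Arntl through ROR elements, and DBP activates genes through D-boxes. In fat tissue this loop gives Arntl RNA a daily peak opposite to that of Dbp and the Per genes, and it sets the daily rhythm of many lipid genes.

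Reference promoters are shown for the members, apart from Cry2, in which a search found these elements. The searched windows run from 250 bases before to 50 bases after each start site, and come from RefSeq on GRCm38.p6. Of the 10 members 9, all but Per2, had an entry, with 13 start sites. Both strands were searched. The E-box was spelled CACGTG, which 7.15% of all 32851 promoters of that length hold. A variant E-box was spelled CACGTT, held by 4.68% of them. The D-box was spelled TTATGTAA, held by 0.938%, and its palindromic form TTACGTAA is held by 0.119%. The core of the ROR element was spelled TAGGTCA, held by 2.61%. Where a variant E-box lies on the other strand, its reverse complement appears in the sequences. No printed match overlaps another. Capitals mark the matches, and each sequence is on the strand of its gene. Apart from that of Arntl, each printed sequence holds only the 250 bases before the start site. For Per3, chr4:151044666-151044915 on the minus strand, they are 2 D-boxes, whose first bases lie 205 and 158 bases before the start. For Per1, chr11:69098699-69098948 on the plus strand, the E-box begins 166 bases before the start. For Cry1, chr10:85185055-85185304 on the minus strand, a variant E-box begins 79 and an E-box 60 bases before the start. For Nr1d1, chr11:98775378-98775627 on the minus strand, a variant E-box begins 28 bases before the start. For Arntl the 30 bases around the ROR element core are shown, chr7:113207529-113207558 on the plus strand, where the core begins 30 bases after the second start site.
Per3: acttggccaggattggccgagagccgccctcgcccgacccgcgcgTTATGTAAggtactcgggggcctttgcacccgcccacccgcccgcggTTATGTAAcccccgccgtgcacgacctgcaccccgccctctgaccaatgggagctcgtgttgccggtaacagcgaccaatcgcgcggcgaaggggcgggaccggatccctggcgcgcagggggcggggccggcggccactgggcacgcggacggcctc
Per1: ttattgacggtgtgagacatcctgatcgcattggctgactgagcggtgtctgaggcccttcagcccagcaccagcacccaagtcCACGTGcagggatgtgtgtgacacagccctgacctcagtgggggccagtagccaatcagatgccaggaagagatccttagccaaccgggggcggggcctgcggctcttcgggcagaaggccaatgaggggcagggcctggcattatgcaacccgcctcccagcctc
Cry1: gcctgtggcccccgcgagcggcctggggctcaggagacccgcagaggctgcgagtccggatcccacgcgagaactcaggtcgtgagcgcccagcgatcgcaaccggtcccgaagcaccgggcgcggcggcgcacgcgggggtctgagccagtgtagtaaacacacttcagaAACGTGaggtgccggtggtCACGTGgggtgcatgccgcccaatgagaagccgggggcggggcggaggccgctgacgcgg
Nr1d1: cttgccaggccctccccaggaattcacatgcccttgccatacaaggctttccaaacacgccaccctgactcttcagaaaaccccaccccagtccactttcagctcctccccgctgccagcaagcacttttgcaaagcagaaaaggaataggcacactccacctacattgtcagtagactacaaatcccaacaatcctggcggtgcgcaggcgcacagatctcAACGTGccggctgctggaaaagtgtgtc
Arntl: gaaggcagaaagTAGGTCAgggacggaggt
Cry2 held 1 variant E-box, 166 bases before its start. None of the searched letters lay in the windows of Clock, Nr1d2 or Dbp. A match is a description of the letters and not a measured binding site.

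Zfp251, the targeted gene, was measured first. It had 3.73, 3.56 and 2.95 FPKM in WT against 6.48, 5.86 and 6.48 FPKM in the libraries labelled KO, so all 3 of the latter were higher (exact permutation test, two-sided, p = 0.1, the smallest that 3 against 3 libraries can give). In limma the log2 difference was 0.72 ± 0.12 (SE; unadjusted p = 0.000594, adjusted p = 0.223). A gene-level value does not show which exons were read. Whether the altered allele still gives RNA or the group labels are exchanged cannot be told apart here, and an exchange would turn the sign of every difference below. Directions are therefore those of the libraries labelled KO. The number of genes at 1 FPKM or more ran from 11814 in WT 3 to 12813 in KO 2. The 10 markers of mature fat cells were present in every library, with a summed level of 39034 to 74048 FPKM in WT and 27922 to 34242 FPKM in the libraries labelled KO. Adipoq, which encodes adiponectin, ran from 2097 FPKM in KO 1 to 5889 FPKM in WT 3. Among markers of other cells, those of epithelium and multiciliated cells moved with the groups, whereas macrophage and endothelial sums overlapped. The 5 macrophage genes together had 583, 873 and 844 FPKM in WT and 554, 544 and 819 FPKM in the libraries labelled KO. The 4 endothelial genes together had 222, 220 and 98.7 FPKM in WT and 189, 194 and 178 FPKM in the libraries labelled KO. The 8 epithelial genes together had 73.1, 15.2 and 8.07 FPKM in WT against 164, 171 and 84.5 FPKM in the libraries labelled KO. The 10 genes of multiciliated cells together had 32.6, 0.931 and 1.39 FPKM in WT against 88.4, 89.8 and 40.5 FPKM in the libraries labelled KO. The epithelial gene Epcam had 14.2 FPKM in WT 1 and at most 0.199 FPKM in WT 2 and WT 3, and Foxj1, the regulator of motile cilia, was listed at 0 in WT 3. The part of these cells in the clock values was not tested beyond a covariate of epithelial and multiciliated markers. That covariate is partly confounded with the groups. In a mixed tissue, fewer cells of a type and less RNA per cell cannot be told apart.

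No clock gene passed the adjusted threshold between the groups, and the spread among libraries of the same label was as wide as the differences between labels for most members. In limma's fit over 12539 genes, 0 of the 10 members had a Benjamini-Hochberg adjusted p under 0.05, against 0% of all genes, and 2 (20%) had an unadjusted p under 0.05, against 13.6% of all genes. Both of these, Cry1 and Per2, had higher values in the libraries labelled KO, where 9.13% of all genes had an unadjusted p under 0.05 in that direction. The groups did not overlap in 1 of the 10 members (10%), Cry1, against 22.2% of all genes, and against 10.1% with KO above WT. The log2 difference was above 0 in 7 of 10 members, against 40.8% of all genes. In absolute size it was smaller than the spread within groups (SD of log2 values) in 6 of the 10 members. The calls changed with 1 alternative: with sample weights, which gave WT 3 a weight of 0.142 and WT 1 one of 4.02, Per2, Per3, Cry1 and Dbp had limma adjusted p-values of 0.039, 0.0442, 0.0388 and 0.0441, and 970 of all genes had one under 0.05. The median over the 8 genes of the repressor and output arm was 0.38, beside -0.09 for Arntl and Clock and -0.05 for all genes. These counts over chosen genes carry no test of the list. With the mean level of epithelial and multiciliated markers as a covariate, 0 of the 10 members had an unadjusted limma p under 0.05, and the standard errors were larger. The log2 difference then went from 0.51 to 1.05 for Dbp, from 0.32 to 0.72 for Per3, from 0.86 to 1.19 for Per2 and from 0.45 to 0.60 for Per1. For Clock it went from -0.15 to -0.42, for Arntl from -0.03 to -0.51, for Nr1d1 from -0.02 to 0.26 and for Cry2 from 0.17 to 0.01. Cry1 (0.55 to 0.52) and Nr1d2 (0.21 to 0.24) moved least.

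**Figure D1:**
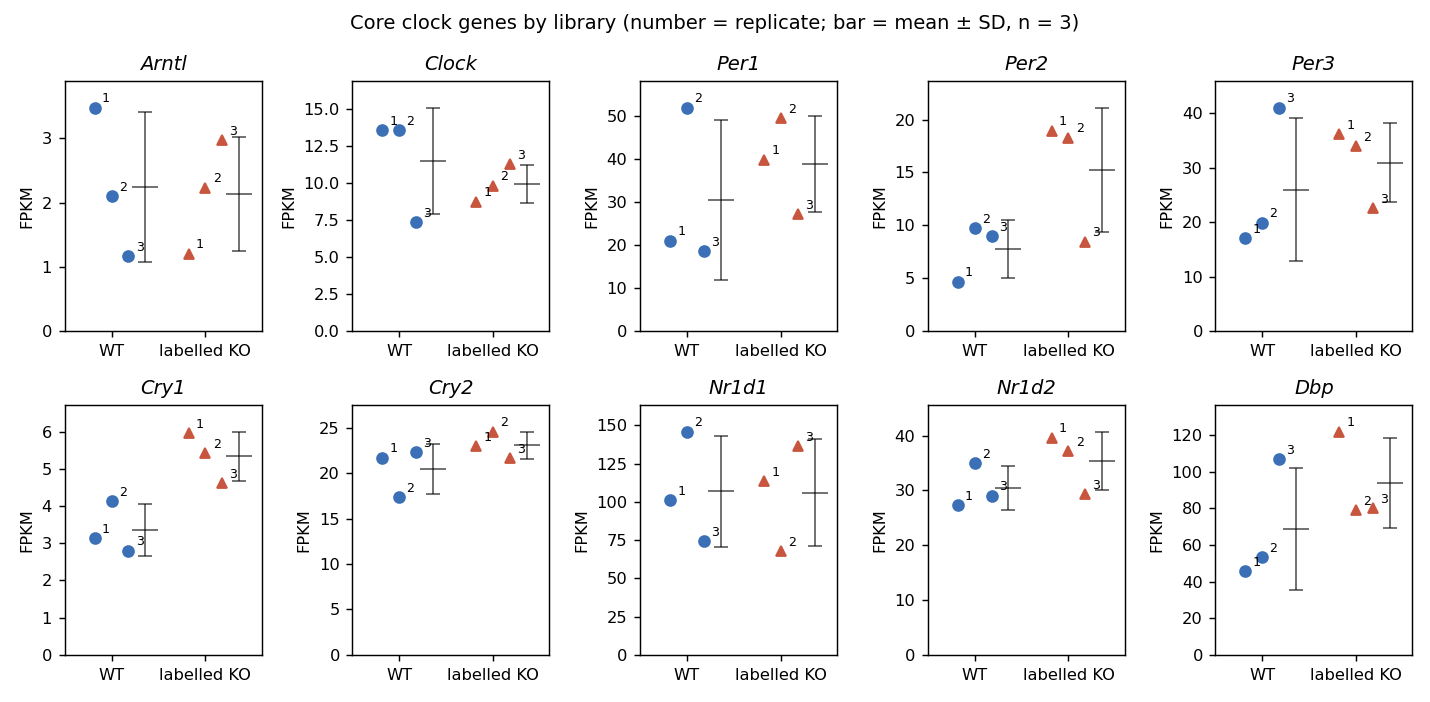
Level of each core clock gene in FPKM (vertical axes, from 0) in the WT libraries (circles) and those labelled KO (triangles), with the replicate number beside each point and the mean ± SD of 3 libraries as a bar. Cry1 is the panel in which the groups do not overlap, and Arntl spans 1.16 to 3.47 FPKM within WT.

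Arntl, which encodes the activator that the loop cannot run without, stood at 3.47, 2.10 and 1.16 FPKM in WT. In KO 1, KO 2 and KO 3 it stood at 1.21, 2.23 and 2.97 FPKM. Both groups held a high and a low library, and they overlapped almost wholly. WT 1 had 2.99 times the level of WT 3, and KO 3 had 2.46 times that of KO 1. The log2 difference between the groups was -0.03 ± 0.32 (SE; 95% interval -0.80 to 0.74, limma adjusted p = 0.973). It turned positive without WT 1 (0.24) and without KO 1 (0.21). Every difference is one of log2(FPKM + 1), and the added 1 shrinks it for low genes such as Arntl. Arntl (ENSMUSG00000055116) is a plus-strand gene, chr7:113207465-113314126 in GRCm38.

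Clock, the partner of Arntl, was the steadier of the pair. It had 13.6 FPKM in both WT 1 and WT 2 and 7.38 FPKM in WT 3. The libraries labelled KO lay between these, at 8.75, 9.85 and 11.3 FPKM. Between the groups the log2 difference was -0.15 ± 0.23 (SE; limma adjusted p = 0.786). The libraries lowest in Arntl, WT 3 and KO 1, were also the lowest in Clock.

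The Period genes encode the slow repressors of the loop, and Per2 had the largest log2 difference of the 10 members. Per2 stood at 4.68, 9.76 and 8.96 FPKM in WT and at 18.9, 18.3 and 8.47 FPKM in the libraries labelled KO. KO 1 and KO 2 were above every WT library, whereas KO 3 lay among them. The mean was 7.80 ± 2.73 FPKM (SD, n = 3) in WT and 15.2 ± 5.87 FPKM in the libraries labelled KO. The log2 difference was 0.86 ± 0.36 (SE; 95% interval 0.01 to 1.71). Its unadjusted limma p was 0.0486 and its adjusted p 0.366. Without WT 1, the lowest library, the difference was 0.57. Per2 (ENSMUSG00000055866) is a minus-strand gene, chr1:91415982-91459324 in GRCm38. KO 1 and KO 2 were also the libraries with the most epithelial marker RNA. WT 1, however, had the most of it among WT and the least Per2. The part of these cells in Per2 was not tested beyond the marker covariate, with which the log2 difference was 1.19.

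Per1, the Period gene that also answers quickly to hormones and cyclic AMP, had 21.0, 51.9 and 18.6 FPKM in WT. It had 39.8, 49.5 and 27.1 FPKM in the libraries labelled KO. The highest and the lowest library were both WT, and the log2 difference was 0.45 ± 0.40 (SE; limma adjusted p = 0.634). With 1 library left out that difference ran from 0.18 to 0.90.

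Per3, whose promoter carries the 2 D-boxes shown above, had 17.1, 19.9 and 41.0 FPKM in WT. It had 36.2, 33.9 and 22.6 FPKM in the libraries labelled KO. WT 3 exceeded all other libraries, and the groups overlapped. Its log2 difference was 0.32 ± 0.34 (SE; limma adjusted p = 0.692). The Period genes did not share an order of libraries, since WT 2 led in Per1, KO 1 in Per2 and WT 3 in Per3.

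The Cryptochromes are the partners of the PER proteins and the strongest repressors of the loop. Cry1 had 3.13, 4.13 and 2.81 FPKM in WT and 5.95, 5.43 and 4.62 FPKM in the libraries labelled KO. Every library labelled KO was above every WT library, by a margin of 4.62 against 4.13 FPKM at the nearest pair. The mean was 3.36 ± 0.693 FPKM (SD, n = 3) in WT and 5.33 ± 0.671 FPKM in the libraries labelled KO, a ratio of 1.59. The log2 difference was 0.55 ± 0.16 (SE; 95% interval 0.17 to 0.92). Its unadjusted limma p was 0.0109 and its adjusted p 0.223, which missed the threshold. It stayed between 0.45 and 0.67 with 1 library left out. Cry1 (ENSMUSG00000020038) is a minus-strand gene, chr10:85131700-85185064 in GRCm38. With the marker covariate its unadjusted limma p was 0.119.

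Cry2 varied least between libraries of the 10 members. It had 21.7, 17.3 and 22.3 FPKM in WT and 22.9, 24.6 and 21.6 FPKM in the libraries labelled KO, a span of 1.42 times. Cry2 had a log2 difference of 0.17 ± 0.13 (SE; 95% interval -0.13 to 0.47, limma adjusted p = 0.575). Cry2 RNA exceeded Cry1 RNA in every library. Its FPKM was 6.91, 4.19 and 7.95 times that of Cry1 in WT and 3.85, 4.53 and 4.68 times in the libraries labelled KO. WT 2 lay among the libraries labelled KO in this ratio.

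Nr1d1 and Nr1d2, the REV-ERB receptors that repress Arntl, had no common order of libraries. Nr1d1 was the most abundant member in WT 1, WT 2 and KO 3, with 101, 146 and 74.2 FPKM in WT and 114, 67.8 and 136 FPKM in the libraries labelled KO. Its groups covered nearly the same range, and the log2 difference was -0.02 ± 0.33 (SE; 95% interval -0.80 to 0.76, limma adjusted p = 0.98). The sign turned with the scaling: it was 0.17 after quantile normalization and 0.03 with median-ratio scaling. Nr1d1 shares 263 exonic bases (8.55% of its exons) with Thra on the opposite strand, and whether the counting used strand is not given in the sources used here. Thra, the thyroid hormone receptor alpha gene, varied only from 47.4 to 54.9 FPKM.

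Nr1d2 had 27.3, 35.0 and 29.1 FPKM in WT and 39.6, 37.2 and 29.3 FPKM in the libraries labelled KO. KO 1 and KO 2 were the highest and KO 3 lay among WT, as in Per2. Nr1d2 had a log2 difference of 0.21 ± 0.15 (SE; 95% interval -0.16 to 0.57, limma adjusted p = 0.578). The ratio of Nr1d1 to Nr1d2 was lowest in KO 2, at 1.82, and highest in KO 3, at 4.65, with WT between 2.55 and 4.17.

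Dbp, the D-box activator and the output gene with the widest daily swing in many tissues, had 45.8, 53.2 and 107 FPKM in WT. It had 122, 78.8 and 79.9 FPKM in the libraries labelled KO. WT 3 was above KO 2 and KO 3, so the groups overlapped. The mean was 68.6 ± 33.3 FPKM (SD, n = 3) in WT and 93.5 ± 24.5 FPKM in the libraries labelled KO. Dbp had a log2 difference of 0.51 ± 0.34 (SE; 95% interval -0.29 to 1.32, limma adjusted p = 0.537). It was 0.88 without WT 3, 0.28 without WT 1 and 0.31 without KO 1. Dbp shares 539 exonic bases (18% of its exons) with Sphk2 on the opposite strand. Sphk2, a sphingosine kinase gene, had 13.4, 12.4 and 14.6 FPKM in WT and 7.91, 10.8 and 11.7 FPKM in the libraries labelled KO. Its lowest library, KO 1, had the most Dbp, and its highest, WT 3, had the next most.

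**Figure D2:**
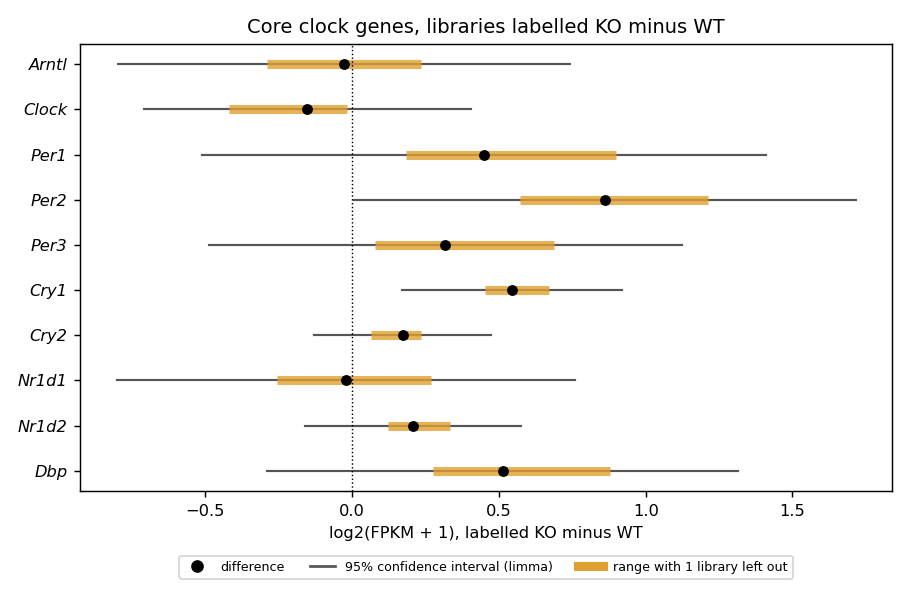
Log2(FPKM + 1) difference between the libraries labelled KO and WT (horizontal axis) for each core clock gene, with limma's 95% confidence interval (thin lines) and the range with 1 library left out (thick bars). The intervals of Cry1 (0.17 to 0.92) and Per2 (0.01 to 1.71) lie above 0 before adjustment over all genes, and the ranges of Arntl and Nr1d1 cross 0.

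By length-scaled level the order of the members was similar in both groups. In WT the means ran from Nr1d1 (107 ± 36.3 FPKM, SD, n = 3) and Dbp (68.6 ± 33.3) through Per1 (30.5 ± 18.6), Nr1d2 (30.5 ± 4.05), Per3 (26.0 ± 13.1) and Cry2 (20.4 ± 2.71) to Clock (11.5 ± 3.58), Per2 (7.80 ± 2.73), Cry1 (3.36 ± 0.693) and Arntl (2.24 ± 1.16). In the libraries labelled KO, Nr1d1 (106 ± 35.0 FPKM) and Dbp (93.5 ± 24.5) again led, Per2 (15.2 ± 5.87) stood above Clock (9.96 ± 1.28), and Arntl (2.14 ± 0.885) was last. Within each group the range of Nr1d1 overlapped that of Dbp, those of Per1, Nr1d2, Per3 and Cry2 each overlapped the next in this order, and that of Clock overlapped that of Per2. Clock RNA was above Arntl RNA in every library.

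The arms of the loop were then compared within each library, because Arntl RNA peaks when Dbp and Per RNA is low. For every gene the deviation of log2(FPKM + 1) from its mean over the 6 libraries was taken, and the mean deviation of the 8 repressor and output genes was subtracted from that of Arntl and Clock. This phase contrast was 0.89, 0.19 and -0.37 in WT and -0.75, -0.23 and 0.27 in the libraries labelled KO. A positive value means that the mean deviation of Arntl and Clock exceeded that of the other arm, not that the arms moved oppositely. In WT 1 (0.44 and -0.44) and KO 1 (-0.36 and 0.39) the arms lay on opposite sides of their means. In WT 3 both lay below, at -0.48 for the activators and -0.12 for the other arm. WT 2 had 0.18 and -0.0091, KO 2 -0.0069 and 0.22, and KO 3 0.23 and -0.041, so that in these libraries 1 arm was near its mean. The groups overlapped, with a mean of 0.24 ± 0.63 (SD, n = 3) in WT and -0.24 ± 0.51 in the libraries labelled KO, and WT 1 and KO 1 stood at the ends. Deviations from the mean over the 6 libraries make these group means equal and opposite by construction. Their opposite signs are therefore no result. No test was made of a score over chosen genes.

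**Figure D3:**
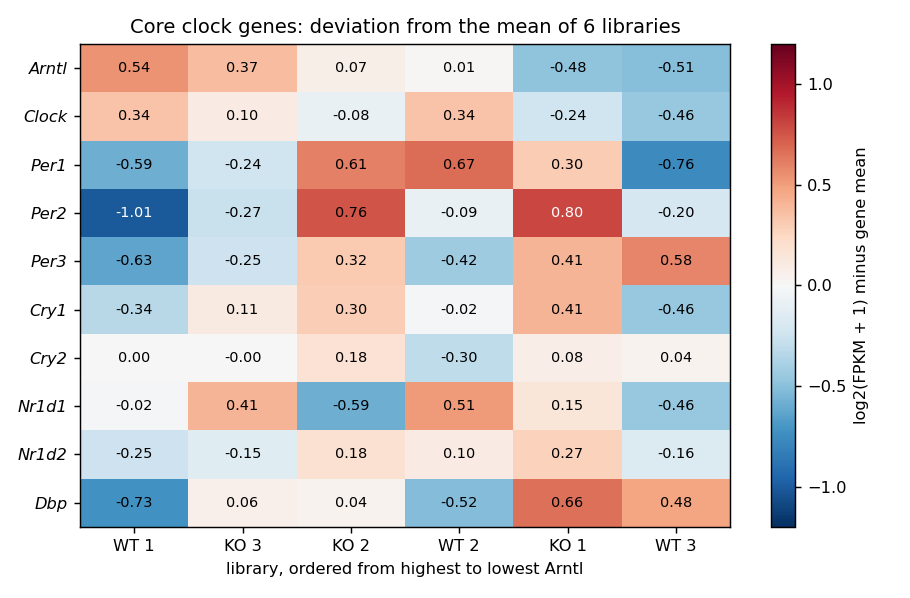
Deviation of log2(FPKM + 1) from the gene's mean over the 6 libraries (colour and printed value) for each core clock gene (rows), with libraries in columns ordered from highest to lowest Arntl. Dbp runs from -0.73 in WT 1 to 0.66 in KO 1 and 0.48 in WT 3, opposite to Arntl. Per1, Cry1, Cry2 and Nr1d1 show no such order.

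The clearest contrast between single libraries was that of WT 1 with KO 1 and WT 3. WT 1 had the most Arntl and the least Per2, Per3, Nr1d2 and Dbp. KO 1 had the most Per2, Cry1, Nr1d2 and Dbp, and its Arntl was nearly as low as that of WT 3. The ratio of Dbp to Arntl, in FPKM, was 13.2, 25.3 and 91.9 in WT and 101, 35.3 and 26.9 in the libraries labelled KO. It thus spanned 7.66 times over the libraries, with 1 library of each label at the high end. The ratio of Per3 to Arntl followed the same split and was highest, at 35.2, in WT 3 and lowest, at 4.92, in WT 1.

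WT 3 was near KO 1 in Clock (7.38 against 8.75 FPKM) and Cry2 (22.3 against 22.9 FPKM) too. The libraries were less alike in Per1, Per2, Cry1, Nr1d1 and Nr1d2. WT 3 was the lowest library in Per1 and Cry1 as well as in Arntl and Clock, so that 4 of the 10 members had their minimum there. Per1 was 39.8 FPKM in KO 1 and 18.6 FPKM in WT 3, and Cry1 was 5.95 against 2.81 FPKM. WT 3 also had a sum of FPKM over all genes of 637902, against 426966 to 472120 in the other libraries. After the deviations were corrected for transcript length, Dbp in WT 3 deviated by 0.30 in place of 0.48, and Per3 by 0.69 in place of 0.58. Arntl was then lowest in KO 1 (-0.48, against -0.46 in WT 3), and Clock stood at -0.27 in both libraries. The phase contrast of WT 3 was -0.19 with that correction and -0.06 with quantile normalization, against -0.37.

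Over the 6 libraries Arntl varied with Clock and against Dbp and Per3, as a description without a test. Arntl correlated with Clock at Pearson r = 0.82 (Spearman rho = 0.66), with Dbp at r = -0.80 (rho = -0.71) and with Per3 at r = -0.85 (rho = -0.83). Among 12538 genes ranked by r with Arntl, Per3 was the 164th and Dbp the 304th from the lowest. Without KO 1 and WT 3, the libraries farthest from the median of Arntl on the log2 scale, r was 0.29 for Clock, -0.31 for Dbp and -0.56 for Per3. These relations were thus weaker without them. Both libraries lie at the low end of Arntl, so leaving them out narrows its range. The weaker r cannot show which libraries the relations rest on. Dbp and Per3 correlated at r = 0.90 (rho = 0.89), and at r = 0.85 without KO 1 and WT 1. Dbp and Clock correlated at r = -0.92 (rho = -0.83), and at r = -0.95 without the same libraries. Nr1d1 was among the members outside this pattern, with r = 0.28 (rho = 0.09) against Arntl and r = -0.30 (rho = -0.09) against Dbp. Without KO 1 and WT 1 the latter was -0.69, and without KO 1 and WT 3 the former was 0.08. Other members moved the opposite way when KO 1 and WT 3 were left out. With Arntl, Per2 went from r = -0.59 (rho = -0.60) to -0.81, Nr1d2 from r = -0.49 (rho = -0.37) to -0.96, Cry1 from r = -0.12 (rho = 0.03) to -0.66 and Per1 from r = -0.08 (rho = 0.03) to -0.997. Cry2 went from r = -0.14 (rho = -0.26) to 0.28. Which members ran against Arntl thus depended on the libraries included, and 4 points remained in each of these. The 6 points share library depth and tissue makeup, and they include both labels.

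**Figure D4:**
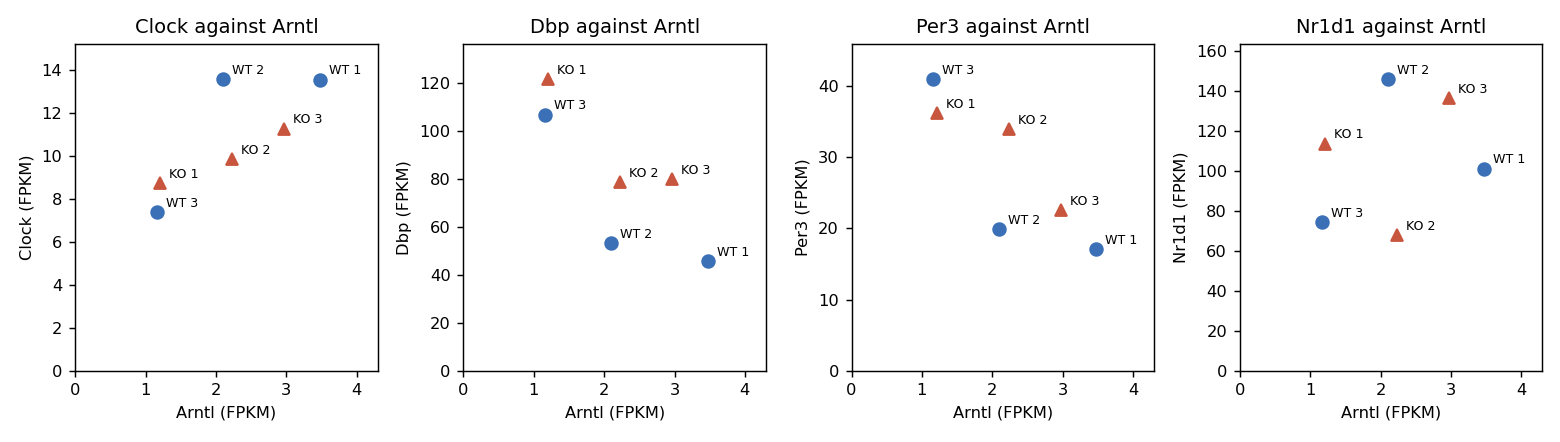
Level of Clock, Dbp, Per3 and Nr1d1 in FPKM (vertical axes) against that of Arntl (horizontal axes) in the 6 libraries, with WT as circles and those labelled KO as triangles. KO 1 and WT 3 sit together at low Arntl (1.21 and 1.16 FPKM) with high Dbp (122 and 107 FPKM), and Nr1d1 shows no slope.

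The outputs that ARNTL and CLOCK drive through E-boxes, and DBP and its relatives through D-boxes, had mostly higher means in the libraries labelled KO. Of the 10 listed outputs, 9 had higher means of log2 values in the libraries labelled KO and 1 lower. Over all genes 40.8% had a difference above 0. The 9 differences ran from 0.008 to 1.04, and the median of the 10 was 0.33, beside -0.05 for all genes. In KO 3 most of these outputs lay below their mean over the 6 libraries. With an unadjusted p under 0.05 there was 1 of 10, against 13.6% of all genes, and 0 passed limma's adjusted threshold. Usp2, a deubiquitinase with a strong daily rhythm, had 6.24, 4.40 and 8.03 FPKM in WT and 17.6, 16.7 and 8.29 FPKM in the libraries labelled KO. Its groups did not overlap, though KO 3 exceeded WT 3 only slightly, and the log2 difference was 1.04 ± 0.31 (SE; limma adjusted p = 0.227). Ciart, a repressor also called Chrono, had 1.16, 2.57 and 4.83 FPKM in WT and 8.69, 7.16 and 2.82 FPKM in the libraries labelled KO, in replicate order. Hlf, a D-box factor related to Dbp, had 3.23, 3.69 and 4.29 FPKM in WT and 9.14, 9.10 and 3.67 FPKM in the libraries labelled KO. Wee1, a cell cycle kinase under clock control, had 2.62, 5.35 and 3.84 FPKM in WT and 7.76, 11.2 and 3.87 FPKM in the libraries labelled KO. In Hlf, Ciart and Wee1, as in Per2, KO 1 and KO 2 were above every WT library and KO 3 was among them. Their log2 differences were 0.73, 0.92 and 0.74, with limma adjusted p-values of 0.373, 0.44 and 0.429.

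**Figure D5:**
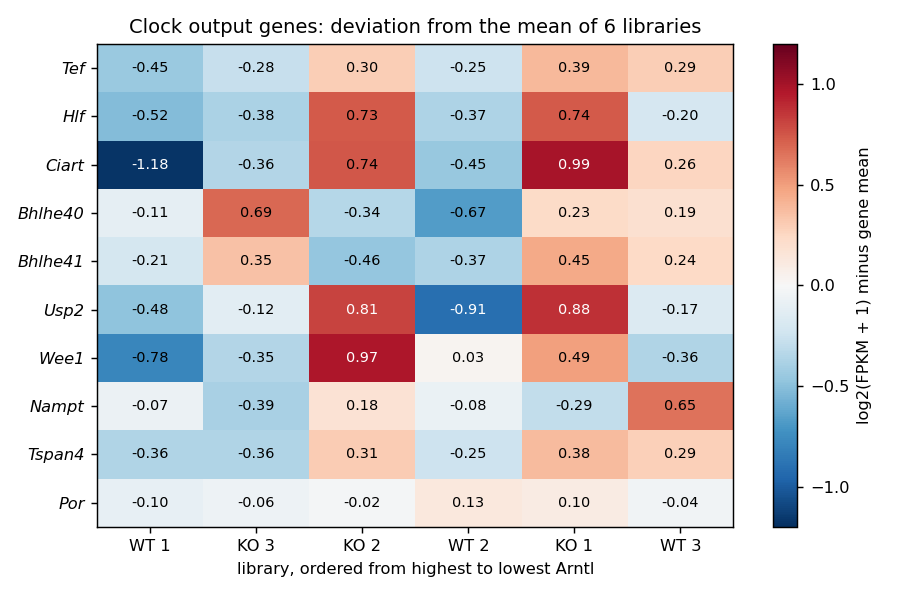
Deviation of log2(FPKM + 1) from the gene's mean over the 6 libraries (colour and printed value) for the 10 listed clock output genes (rows), with libraries ordered from highest to lowest Arntl. Ciart, Hlf, Usp2 and Wee1 are highest in KO 1 and KO 2, and Ciart reaches -1.18 in WT 1.

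The other clock lists stayed close to 0. Of 6 genes driven by ROR elements or partnering the activators, 5 were tested, with 3 higher and 2 lower in the libraries labelled KO and a median log2 difference of 0.02. Rorb was below the filter. Npas2, which can stand in for Clock, differed by -0.11 on the log2 scale, Arntl2, a paralog of Arntl, -0.11, and Nfil3, the D-box repressor, 0.09. Of 10 other listed genes, mostly kinases and ubiquitin ligases that act on clock proteins, 4 were higher and 6 lower, with a median of -0.03. The kinase gene Gsk3b had 0.20, Fbxl21, a ligase subunit for CRY, -0.19, and the casein kinase genes Csnk1a1 and Csnk1e -0.08 and -0.09. In both lists 0 genes had an unadjusted limma p under 0.05, against 13.6% of all genes.

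Genes that answer to the cues known to induce Per1 were read in the same libraries. Of 6 genes of glucocorticoid signalling, Per1 included, 4 were higher and 2 lower in the libraries labelled KO, with 1 of the 6 at an unadjusted limma p under 0.05, against 13.6% of all genes. Zbtb16, a hormone-induced zinc finger gene, had 14.2, 20.1 and 27.1 FPKM in WT and 37.7, 32.3 and 24.6 FPKM in the libraries labelled KO. Its log2 difference was 0.62 ± 0.25 (SE; limma adjusted p = 0.348). Fkbp5, a chaperone cofactor of the glucocorticoid receptor, was 57.3 and 84.3 FPKM in KO 1 and KO 2 and between 38.2 and 44.0 FPKM in the other 4 libraries. The receptor gene Nr3c1 had a log2 difference of -0.19.

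Immediate early genes, which respond within minutes to handling and growth signals, differed mostly between WT libraries. Of 9 tested genes 8 were lower and 1 higher in the libraries labelled KO, with a median log2 difference of -0.30, and 0 had an unadjusted limma p under 0.05, against 13.6% of all genes. Fos had 30.8, 31.7 and 5.21 FPKM in WT and 15.0, 8.14 and 6.73 FPKM in the libraries labelled KO, a log2 difference of -0.84. Egr1 had 61.4, 24.6 and 7.87 FPKM in WT and between 10.4 and 22.4 FPKM in the libraries labelled KO. WT 3 was the lowest library in both. Ier2 and Atf3 had log2 differences of -0.30 and -0.51. Among the 3 targets of the CREB pathway, Crem, which encodes a cyclic AMP responsive repressor, had 13.2, 19.0 and 17.5 FPKM in WT and 9.61, 9.81 and 11.5 FPKM in the libraries labelled KO. Its groups did not overlap, as in 12.2% of all genes with KO below WT, and the log2 difference was -0.62 ± 0.16 (SE; limma adjusted p = 0.223). Nr4a1 and Sik1 had -0.23 and -0.12. The part of these cues in the Per1 values was not tested.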

How the data were processed

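Libraries were made from total RNA with a stranded mRNA kit, per the labels' protocols. The submitters' processing notes name STAR 2.5.4, Cufflinks, Cuffdiff 2.2.1 and the mouse build mm10. The annotation used, the filters and how libraries were normalized: not given in the sources used here. The deposited values were read as FPKM, 1 column per library: no header names the unit, and it was inferred from the tools and the values.

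The table has 21853 rows, and for 24 repeated symbols the row of highest mean stood for the gene. The 12539 genes whose mean reached 1 FPKM entered limma 3.58.1 (R 4.3.3) as log2(FPKM + 1). Group was the sole term, the variance prior followed the mean, and the threshold was a Benjamini-Hochberg adjusted p of 0.05 over all tested genes. Count tests were not run, since the table holds no counts. From the steps between low values, depth was 0.79 of that of WT 1 in WT 2, 0.821 in KO 1, 1.03 in WT 3, 0.653 in KO 2 and 0.941 in KO 3. In WT 3 11.2% of the low genes lay at that step, against 15.1% to 21.8% in the others, so its value is the least certain. Counting intervals would need the total depth, which is unknown. Gene positions and exon lengths are those of GENCODE vM21 on GRCm38, the assembly that mm10 names. Exact permutation used scipy 1.17.1.

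The members, the gene lists and the tests were chosen with earlier results of these data known. The named genes were the members, Zfp251, up to 4 genes with the smallest p of each clock or cue list, the 5 genes most correlated with Arntl and with Dbp, and the markers Epcam, Foxj1 and Adipoq. One gene that this rule names is not reported here. Sgk1, Tsc22d3 and the other list members enter by their counts, and Thra and Sphk2 were named because their exons overlap members. The alternatives were a pseudocount of 0.1, no filter, a mean of at least 5 FPKM, quantile normalization, median-ratio scaling, sample weights, a length correction (a smooth curve on exon length, span 0.3), an epithelial covariate, a replicate block and each library left out. On simulated data for the KO minus WT comparison over 12539 genes, 50 genes were changed per size. The fit recovered 6% of those changed by 0.5 on the log2 scale, near the size of several members' differences. It recovered 56% at a change of 1, 92% at 2 and 88% at 3, with 6 false calls. Noise was drawn independently for each gene, without the tissue makeup that the libraries share, so recovery in these data may differ. In the fit of the data Foxj1 (log2 difference 3.80) and Epcam (3.27) did not pass, with limma adjusted p-values of 0.223 and 0.226.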

Additional observations from a re-analysis of the deposited data

How the results depend on the processing

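No clock gene passed the adjusted threshold in limma except with sample weights, where 4 did: Per2 (log2 difference 1.53, adjusted p = 0.039), Per3 (0.86, 0.0442), Cry1 (0.65, 0.0388) and Dbp (1.08, 0.0441). Those weights ran from 0.142 for WT 3 to 4.02 for WT 1. With them 970 genes of all passed, and 1 passed with no filter on low values. With a library left out the number of all genes that passed ran from 0 to 482, the highest without WT 1. The number of clock genes with an unadjusted p under 0.05, 2 of 10, was 8 with sample weights, 0 with the epithelial covariate, and 1 with a pseudocount of 0.1, with no filter and with a minimum mean of 5 FPKM, under which Arntl and Cry1 drop out. With a library left out it ran from 1 (without WT 1, KO 1 or KO 2) to 4 (without WT 3).

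The sign of Arntl turned with median-ratio scaling (0.0038), without WT 1 (0.24) and without KO 1 (0.21), and with a library left out it ran from -0.29 to 0.24. That of Nr1d1 turned with quantile normalization (0.17), median-ratio scaling (0.031), the length correction (0.076), the epithelial covariate (0.26), without WT 2 (0.23) and without KO 2 (0.27), and with a library left out it ran from -0.26 to 0.27. The causes were not tested. The other 8 members kept their sign in every alternative run. The phase contrast of each library kept its sign under all 4 alternatives run for it. Over the same 4 alternatives, added after the data were seen, 8 correlations kept their sign, and after quantile normalization those of Arntl with Per2 and Nr1d1 were -0.83 and 0.17 and that of Dbp with Nr1d1 was -0.12.

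With the replicate number as a block, the number of clock genes with an unadjusted p under 0.05 was 1, and no other clock call changed. The SE of Per1 was 0.21 with the block and 0.40 without it, and its unadjusted limma p with it was 0.0765. Same-numbered libraries did not consistently deviate together (r across genes of 0.228, -0.2 and 0.22 for numbers 1, 2 and 3). WT 1 had its highest r with KO 2 (0.426), so the numbers were not taken as pairs.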

Other observations

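The genes whose levels followed Arntl and Dbp most closely over the 6 libraries, among 12538 ranked by Pearson r of log2(FPKM + 1), were no members of the clock lists. With 6 points and many genes, high values of r are common, and they are given as a description. For Arntl they were Ercc4, a DNA repair nuclease subunit (r = 0.99), Secisbp2l (0.98), the ceramide synthase Cers6 (0.98), Gdf10, a secreted growth factor (0.97), and Gatm, of creatine synthesis (0.97). In replicate order Gatm had 7.57, 6.21 and 4.3 FPKM in WT against 3.86, 5.71 and 7.79 FPKM in the libraries labelled KO, so KO 1 and WT 3 were lowest, as in Arntl. Clock was the 153rd gene in that ranking. For Dbp the closest were Nhlrc1 (r = 0.99), Lztfl1 (0.99), Plxna3 (0.98), Tarsl2 (0.97) and B4galt1, a galactosyltransferase (0.97). Plxna3, a semaphorin receptor, had 1.86 FPKM in KO 1 and 1.61 FPKM in WT 3 and 1.09 FPKM in WT 1. Gatm and Plxna3 had the widest spans of their sets, 2.02 and 1.71 times over the 6 libraries. Ercc4 and Lztfl1 spanned only 1.17 and 1.2 times, against 2.99 for Arntl and 2.66 for Dbp. The size of such a span does not enter r. Per3 was the 55th gene in the ranking by Dbp.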
